A study of Mus musculus with 6 samples.

Results

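The mitochondrial ribosome makes the few proteins that are encoded in mitochondrial DNA, nearly all of them parts of the respiratory chain. Its protein parts are encoded in the nucleus, made on cytosolic ribosomes and imported. The genes examined here are those named Mrpl for the large subunit and Mrps for the small subunit. Members were the rows of the deposited gene count table whose symbol is Mrpl or Mrps followed by a number and at most 1 letter, and whose counts sum to at least 60 over the 6 libraries. Of 55335 rows, 78 met this rule, 49 of the large and 29 of the small subunit. No row with such a symbol was lost to the minimum, and the lowest sum was 712. All 78 also passed the filter on low counts that left 13901 genes for testing.

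The libraries are polyA RNA-seq of macrophages cultured from mouse bone marrow (BMDMs) in high-glucose medium with 10% serum, 1% antibiotic and 20 ng/mL macrophage colony-stimulating factor. On day 5 all cultures were given PAC-CM, medium conditioned by injured pancreatic acinar cells, which are the enzyme-secreting cells of the pancreas. It was given without kinsenoside in 3 libraries (called PAC-CM below) and with 400 µM kinsenoside, a plant glycoside, in 3 libraries (called kinsenoside). No group without PAC-CM was analysed here, and the strain, sex and age of the mice and the length of exposure are not given in the sources used here. The labels do not say whether the 3 libraries of a group came from separate animals or cultures, so the p-values measure the spread among these libraries, which may be technical. The comparison answers how the same genes differed between PAC-CM with and without the compound.

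Total counts were between 41125059 and 47461702 per library, and no pair of libraries agreed within sampling noise (chi-square per degree of freedom at least 26.2). Of the 13901 genes tested, 29 were higher and 42 lower with kinsenoside at an adjusted p under 0.05 (edgeR, quasi-likelihood, Benjamini-Hochberg), and 2075 had an unadjusted p under 0.05. Macrophage markers (Csf1r, Adgre1, Lyz2 and others) summed to between 20500 and 25300 CPM (counts per 1000000 counts of the library) in the 6 libraries, and none of 9 such rows passed the test. Acinar enzyme genes summed to between 5.35 and 8.01 CPM. Of 6 neutrophil markers Elane was at 0 in all libraries, while the list summed to 30.5 to 39.8 CPM in PAC-CM and 32.3 to 42.6 CPM with kinsenoside, most of it S100a8. Of 4 T cell markers Cd3d was at 0, and the list, mostly Lck, summed to 2.09 to 2.99 and 1.77 to 3.45 CPM. Dendritic cell markers summed to 6.05 to 8.58 and 5.57 to 7.85 CPM, and the ductal markers Krt19 and Sox9 were at 0 in all libraries. Proliferation genes (Mki67, Top2a, Ccnb1 and Birc5) summed to 28.2 to 35.8 CPM in PAC-CM and 21.2 to 30.9 CPM with kinsenoside, most of it Mki67. In that order their log2 fold changes (kinsenoside over PAC-CM) were -0.25, 0.04, -0.34 and 0.81, the last from a mean of 0.172 CPM in PAC-CM. None of them passed the test. The part of these values in the results was not tested.

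Mammalian mitochondrial ribosomes are rich in protein compared with bacterial ones: many of their proteins have a bacterial homologue, and others are found in the mitochondrial ribosome only. The transcription factors NRF-1 and GABP, an ETS protein, are known for binding the promoters of genes for mitochondrial proteins, and YY1 for binding near their start sites.

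RefSeq promoter sequences (GRCm38.p6, 250 bases before to 50 bases after a start site) were matched by symbol for 69 of the 78 genes. They were searched on both strands for 3 motifs: GCGCNTGCG (the NRF-1 core), CCGGAAG (the ETS core) and AAGATGGCG (a YY1-type motif). The last 3 letters of the ETS core can be the first 3 of the YY1-type motif, so 1 stretch can match both. The sequences below, 5′ to 3′ on the gene's strand, show the gene whose counts differed most and 3 genes with motif matches that did not pass the test. Only bases before the start and outside annotated exons are printed, and capitals mark a motif match.
Mrps25: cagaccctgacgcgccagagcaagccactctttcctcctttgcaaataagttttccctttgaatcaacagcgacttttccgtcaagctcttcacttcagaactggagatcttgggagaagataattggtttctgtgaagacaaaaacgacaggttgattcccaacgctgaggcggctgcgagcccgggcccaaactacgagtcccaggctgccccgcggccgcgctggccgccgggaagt
Mrpl12: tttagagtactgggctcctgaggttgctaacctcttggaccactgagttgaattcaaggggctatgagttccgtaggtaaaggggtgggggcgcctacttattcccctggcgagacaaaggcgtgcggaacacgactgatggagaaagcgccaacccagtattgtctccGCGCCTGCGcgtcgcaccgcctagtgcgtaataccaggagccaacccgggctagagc
Mrpl22: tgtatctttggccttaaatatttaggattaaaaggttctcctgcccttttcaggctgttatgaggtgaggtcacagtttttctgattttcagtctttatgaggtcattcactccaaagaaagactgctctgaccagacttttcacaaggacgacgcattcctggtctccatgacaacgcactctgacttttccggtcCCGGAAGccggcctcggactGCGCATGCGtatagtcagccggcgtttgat
Mrpl45: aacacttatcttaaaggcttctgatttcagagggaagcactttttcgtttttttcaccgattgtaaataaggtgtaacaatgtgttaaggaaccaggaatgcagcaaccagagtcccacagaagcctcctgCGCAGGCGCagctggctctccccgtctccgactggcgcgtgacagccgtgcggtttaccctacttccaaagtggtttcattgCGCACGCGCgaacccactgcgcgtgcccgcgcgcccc

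These stretches lie at chr6:92184034-92184273 on the minus strand for Mrps25, and on the plus strand at chr11:120484387-120484612 for Mrpl12, chr11:58171414-58171660 for Mrpl22 and chr11:97315466-97315715 for Mrpl45. The 250 bases before the Mrps25 start held none of the 3 motifs. The shares given below count the whole window, with the 50 bases after the start. Mrpl12 had an NRF-1 core 81 bases before the start. Mrpl22 had an ETS core 53 bases and an NRF-1 core 33 bases before the start, and Mrpl45 had an NRF-1 core on the opposite strand 119 and 37 bases before it. Among the 69 genes, 18 (26.1%) had the NRF-1 core, compared with 15.6% of the 9689 tested genes with a window and 7.12% of all 27025 genes in the table. The ETS core was found in 26 (37.7%), compared with 20.7% of tested genes and 9.93% of all genes. The YY1-type motif was found in 8 (11.6%), compared with 3.74% and 1.64%. By subunit, the NRF-1 core was in 30.2% of 43 large and 19.2% of 26 small subunit genes, and the ETS core in 34.9% and 42.3%. At least 1 of the motifs was in 43 genes, 9 had 2 kinds and 26 had none. A match is a string of letters and not a shown binding site.

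The 78 genes as a set stood at nearly the same level with and without kinsenoside. A single gene of 78, Mrps25, passed the test, and it was lower; none was higher. Over all tested genes 0.511% were called in either direction and 0.302% were called lower. Without adjustment, 4 of the 78 genes were higher and 3 lower at a p under 0.05 by the same edgeR test. Among all 13901 tested genes, 937 were higher and 1138 lower at that threshold. Whether the shares differ was not tested. The median log2 fold change (kinsenoside over PAC-CM) was -0.02, beside -0.01 for all tested genes, and 35 estimates were above 0 and 43 below. The interquartile range of the estimates was -0.08 to 0.09, and the full range was -0.63 to 0.26.

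The intervals of the single genes were narrow. The median standard error was 0.103 on the log2 scale, compared with 0.127 over all tested genes. In 73 of 78 genes (93.6%) the 95% interval lay wholly inside a 1.5-fold difference in either direction, compared with 61.1% of all tested genes. The 5 whose interval reached past it were Mrpl32, Mrpl53, Mrpl58, Mrps18b and Mrps25. An interval gives the sizes of difference that these 3 libraries a group leave possible, so small differences may have been missed.

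**Figure D1:**
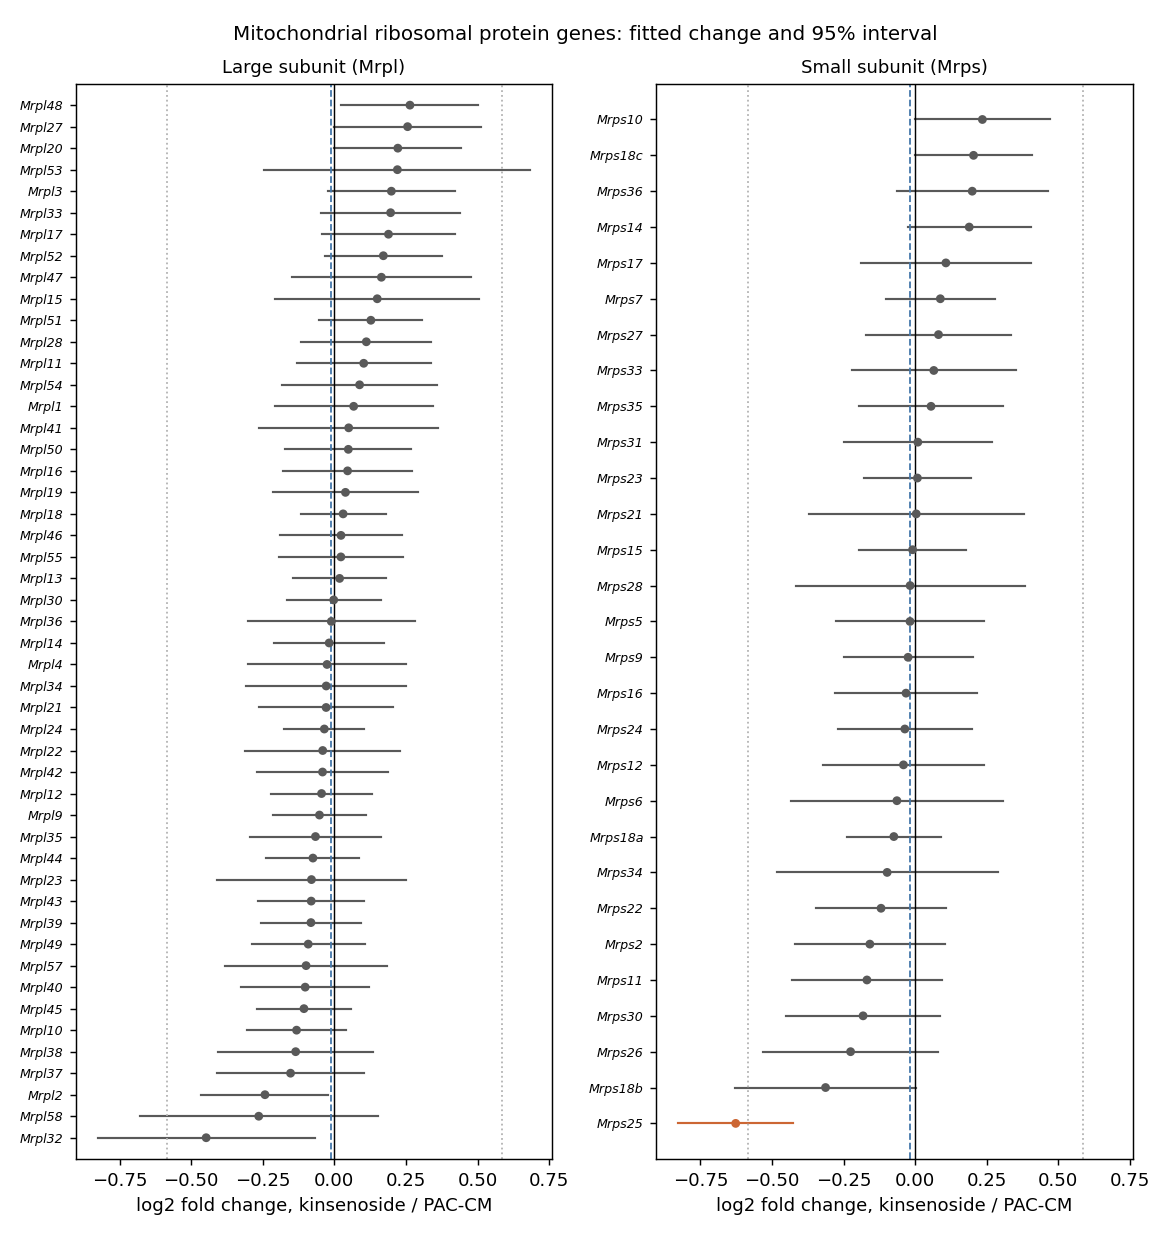
Fitted log2 fold change of each gene (point) with its 95% interval (bar) for the 49 large subunit genes (left) and the 29 small subunit genes (right), ordered by the estimate. The solid line is 0, the dashed line the median of the panel (-0.01 left, -0.02 right) and the dotted lines a 1.5-fold difference; Mrps25, in orange, is the only gene that passed the test.

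Few of the genes separated the groups without overlap. On the scale corrected for library composition by edgeR's TMM factors, all 3 kinsenoside libraries lay above all 3 PAC-CM libraries for 5 genes (6.41%), compared with 10.4% of all tested genes. These were Mrpl20, Mrpl48, Mrps10, Mrps14 and Mrps18c. They lay below for 6 genes (7.69%), compared with 11.4% of all tested genes: Mrpl2, Mrpl9, Mrpl44, Mrpl45, Mrps18a and Mrps25. Whether the shares differ from those of all genes was not tested.

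Large and small subunit genes gave similar values. The median log2 fold change was -0.01 for the 49 large subunit genes (23 estimates above 0, 26 below, none called) and -0.02 for the 29 small subunit genes (12 above, 17 below, 1 called). The difference between the medians, large minus small, was 0.01. In the single libraries, the median deviation of the large subunit genes from each gene's own mean, less that of the small subunit genes, came to 0.032, -0.0042 and -0.0354 without the compound and to -0.0311, 0.0257 and 0.0028 with it. The groups overlap in this measure. The large subunit rows held 2.33, 2.272 and 2.227 times as many counts as the small subunit rows in PAC-CM and 2.331, 2.328 and 2.407 times as many with kinsenoside. The highest ratio was in kinsenoside replicate 3. The groups overlap narrowly, since PAC-CM replicate 1 lay above kinsenoside replicate 2. Mrps25, the small subunit gene that was called lower, is part of these ratios, and no ratio without it was computed. The sums that such a ratio would use are at hand. The large subunit rows summed to 826.5, 807.9 and 801.2 TMM-scaled CPM in PAC-CM and to 826.4, 827.6 and 801.3 with kinsenoside. The small subunit sums without Mrps25 are given below.

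Names do not follow the structure in 3 cases. The proteins of Mrps30 and Mrps18a sit in the large subunit of the mammalian mitochondrial ribosome, and the product of Mrps36 belongs to the 2-oxoglutarate dehydrogenase complex. With Mrps30 and Mrps18a moved to the large subunit and Mrps36 left out, the medians were -0.02 for 51 large subunit genes and -0.02 for 26 small subunit genes. Split by origin, 46 genes with a bacterial homologue had a median of -0.01 and 29 found in the mitochondrial ribosome only had a median of -0.07. Mrps18a, Mrps18b and Mrps36 were put in neither of these classes. By promoter motif, the median was -0.06 for the 18 genes with an NRF-1 core and 0.01 for those with a window but no such core. For the ETS core the medians with and without were 0.01 and -0.02, and for the YY1-type motif -0.05 and -0.01. These medians are descriptions with no test.

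The summed level of the 78 genes shows how far the scaling matters for differences of this size. As plain CPM the sums were 1203, 1177 and 1178 in PAC-CM and 1163, 1171 and 1109 with kinsenoside, so that every kinsenoside library was lower. Scaled by the TMM factors, the sums were 1181, 1163 and 1161 in PAC-CM and 1181, 1183 and 1134 with kinsenoside, and the groups overlapped. Kinsenoside replicate 3 was the lowest under both. The small subunit rows summed to 354.7, 355.5 and 359.8 scaled CPM in PAC-CM and 354.5, 355.5 and 332.9 with kinsenoside. Without Mrps25 they summed to 336.2, 335.6 and 340.9 and to 342.9, 342.3 and 320.6. In bulk RNA, fewer cells of a type and less RNA per cell cannot be told apart.

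Levels differed widely among the 78 genes. Mean CPM over the 6 libraries, which also rises with transcript length, ran from 2.73 for Mrpl53 to 45.0 for Mrpl30. Per kilobase of the annotated principal transcript, mean CPM ran from 1.44 for Mrps35 to 71.2 for Mrpl52, followed by Mrpl30 at 46.4, Mrps21 at 39.5 and Mrpl33 at 33.1. This order depends on the annotated length. No gene varied by 2 times or more within a group; the widest ratio of highest to lowest library was 1.65, in Mrpl58.

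**Figure D2:**
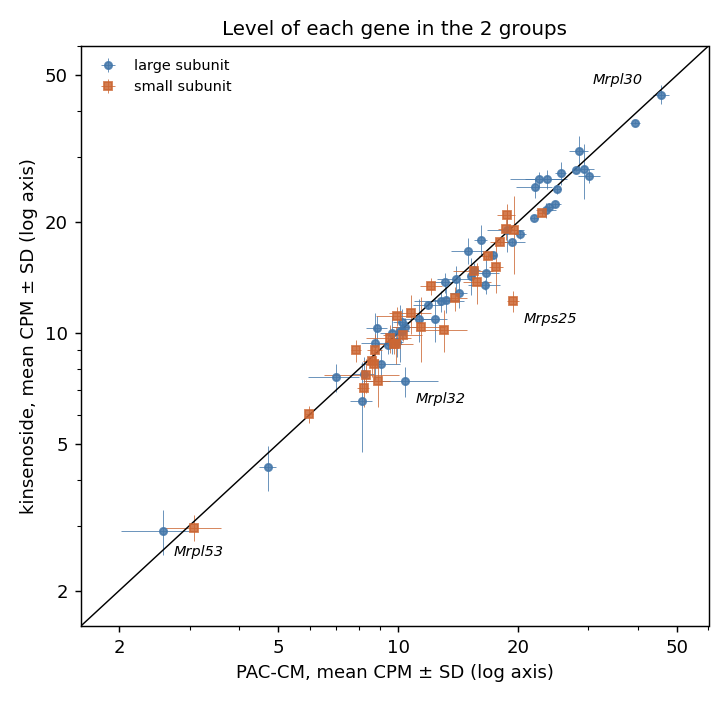
Mean CPM of each of the 78 genes with kinsenoside (vertical) against PAC-CM (horizontal), both on log axes, with bars for the SD over 3 libraries; circles are large and squares small subunit genes. The line marks equal levels: most genes sit on or near it over a range of 2.73 to 45.0 CPM, and Mrps25 and Mrpl32 lie below it.

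Mrps25 (ENSMUSG00000014551, chr6:92169525-92184033, minus strand, GRCm38) encodes a small subunit protein found in the mitochondrial ribosome only. Its counts were 814, 959 and 848 in PAC-CM and 499, 553 and 496 with kinsenoside. The groups do not overlap: the highest kinsenoside library was well under the lowest PAC-CM library. The level went from 19.4 ± 0.678 CPM (SD, n = 3) to 12.2 ± 0.819 CPM (SD, n = 3). Mrps25 fell by 0.63 on the log2 scale (SE 0.088, 95% interval -0.83 to -0.43; edgeR quasi-likelihood test, adjusted p = 0.0316). The call was lost when any library other than kinsenoside replicate 1 was left out, with estimates from -0.68 to -0.58 and an adjusted p of up to 0.139 by the same test.

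The row of Mrps25 shares exon bases with Nr2c2, a nuclear receptor gene on the opposite strand that runs into it tail to tail. The shared stretch is 4590 bases, 69.8% of the exon bases of Mrps25. Whether the counting used strand is not stated, so reads from the shared stretch cannot be assigned to 1 of the genes with certainty. Nr2c2 had counts of 336, 393 and 376 in PAC-CM and 454, 753 and 788 with kinsenoside. Its groups do not overlap either, and it lay on the other side: 8.2 ± 0.366 CPM without and 15.8 ± 4.69 CPM with the compound (SD, n = 3 each). It did not pass edgeR's quasi-likelihood test (log2 fold change 0.99, SE 0.217, adjusted p = 0.11). Summed, the rows gave 1150, 1352 and 1224 counts in PAC-CM and 953, 1306 and 1284 with kinsenoside, and the groups overlapped. As CPM the sums were 26.7, 28.5 and 27.7 in PAC-CM and 21.9, 30.9 and 31.2 with kinsenoside. The kinsenoside libraries thus lay on both sides of the PAC-CM range, and none inside it. The fitted difference of the summed row was 0.06 on the log2 scale (SE 0.132, 95% interval -0.24 to 0.37; edgeR, adjusted p = 0.873). The difference seen in Mrps25 alone was not detected in the sum. Since Nr2c2 lay on the other side, the sum cannot tell whether Mrps25 itself differed.

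**Figure D3:**
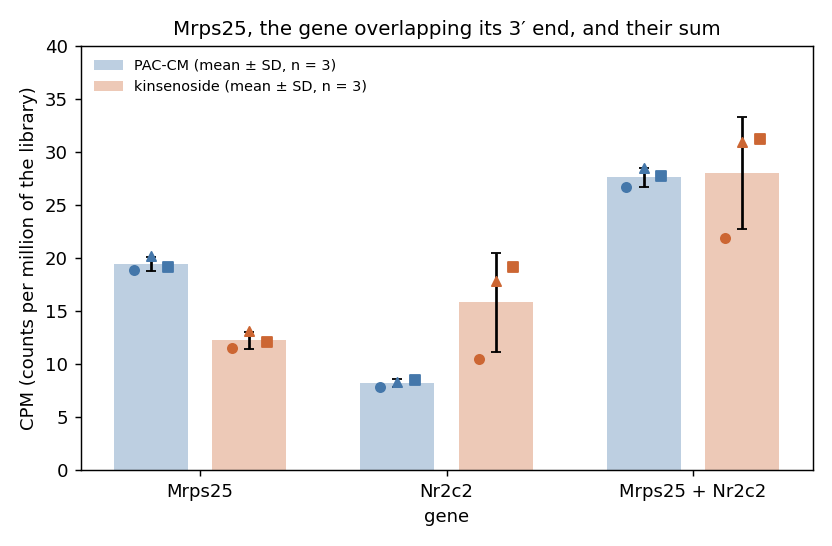
CPM of Mrps25, of Nr2c2 and of their sum; bars are means and error bars SD over 3 libraries, and circles, triangles and squares are replicates 1, 2 and 3. Mrps25 is lower and Nr2c2 higher in each kinsenoside library. The sums have means of 27.6 ± 0.892 CPM (PAC-CM) and 28.0 ± 5.28 CPM (kinsenoside). Their ranges overlap, with kinsenoside replicate 1 below all PAC-CM libraries and kinsenoside replicates 2 and 3 above them.

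Such overlaps touch other members too. By the GENCODE M21 annotation, 33 of the 78 share exon bases with another gene, and 9 share at least 20% of theirs: Mrpl53, Mrps25, Mrps34, Mrpl19, Mrpl43, Mrps18b, Mrpl24, Mrps27 and Mrps18c. Mrpl53 (chr6:83109040-83109939) shares 88.0% with Gm42688, a model on the same strand that had 334 to 411 counts beside the 99 to 140 of Mrpl53. Mrpl46 and Mrps11, which lie head to head and encode a large and a small subunit protein, share 173 bases. When the 9 genes were summed with their partners, none was called.

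Among the large subunit genes, Mrpl32 (ENSMUSG00000015672, chr13:14608184-14613165) had the smallest p. It encodes a protein whose cleavage by the mitochondrial m-AAA protease is known as a step of ribosome assembly. It had 12.1, 11.2 and 7.89 CPM in PAC-CM and 8.17, 7.06 and 6.93 CPM with kinsenoside. The groups overlap, since PAC-CM replicate 3 lay under kinsenoside replicate 1. The log2 fold change was -0.45 (SE 0.166; edgeR, adjusted p = 0.261).

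Mrpl48 (ENSMUSG00000030706, chr7:100545751-100608301) had the highest estimate of all 78 genes. It had 8.66, 9.42 and 8.41 CPM in PAC-CM and 11.2, 9.72 and 9.97 CPM with kinsenoside, without overlap. The log2 fold change was 0.26 (SE 0.105; edgeR, adjusted p = 0.296). Mrpl2 (ENSMUSG00000002767, chr17:46646229-46650139), which encodes the homologue of a bacterial protein of the peptidyl transferase region, had 14.8, 17.8 and 16.8 CPM in PAC-CM and 13.9, 13.1 and 13.5 CPM with kinsenoside. All kinsenoside libraries lay lower, with a log2 fold change of -0.24 and an adjusted p of 0.302 by edgeR. Mrpl20 (ENSMUSG00000029066, chr4:155802878-155809975), the homologue of an early-assembling bacterial protein, had 23.6, 23.0 and 19.4 CPM in PAC-CM and 25.9, 25.6 and 23.0 CPM with kinsenoside. After TMM scaling the groups did not overlap, and the log2 fold change was 0.22 (edgeR, adjusted p = 0.335).

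The ribosomal stalk recruits translation factors. Mrpl12 (ENSMUSG00000039640, chr11:120484613-120489065), a stalk protein that is also known to bind mitochondrial RNA polymerase, had 17.6, 17.4 and 17.0 CPM in PAC-CM and 16.0, 16.3 and 16.7 CPM with kinsenoside. Its log2 fold change was -0.04 with a 95% interval of -0.22 to 0.13 (edgeR, adjusted p = 0.843). The CPM values separate the groups while the TMM-scaled values overlap. Mrpl10, which anchors the stalk, had 32.0, 28.3 and 30.0 CPM in PAC-CM and 27.7, 26.7 and 25.4 CPM with kinsenoside, and a log2 fold change of -0.13 (edgeR, adjusted p = 0.461). Mrpl58, a peptidyl-tRNA hydrolase that frees stalled ribosomes and is also built into the large subunit, had 7.94, 7.69 and 8.68 CPM in PAC-CM and 5.94, 8.58 and 5.13 CPM with kinsenoside. Kinsenoside replicate 2 lay among the PAC-CM libraries, and the interval of the log2 fold change, -0.68 to 0.15, was among the widest.

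Mrpl44, which resembles an RNase III enzyme, had 24.7, 23.7 and 23.3 CPM in PAC-CM and 21.7, 22.6 and 21.7 CPM with kinsenoside. Its groups do not overlap, yet the log2 fold change was only -0.07 (edgeR, adjusted p = 0.679). Mrpl45, one of the genes with a printed promoter, had 25.6, 23.7 and 24.8 CPM and 21.9, 22.6 and 22.2 CPM, again without overlap, with a log2 fold change of -0.11 (edgeR, adjusted p = 0.54). Mrpl9 had 22.2, 22.2 and 21.3 CPM and 20.7, 20.6 and 20.2 CPM, with a log2 fold change of -0.05 (edgeR, adjusted p = 0.792). In these 3 genes the libraries of a group lay close together, and the gap between the groups was small. Mrpl22, with both an ETS and an NRF-1 core, had 8.01, 7.77 and 8.77 CPM and 8.7, 7.35 and 7.1 CPM, which overlap.

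The most abundant large subunit genes per kilobase did not pass the test. Mrpl52 had 26.7, 28.8 and 29.8 CPM in PAC-CM and 34.4, 30.6 and 28.2 CPM with kinsenoside, and the groups overlap (log2 fold change 0.17; edgeR, adjusted p = 0.418). Mrpl30 had 46.8, 47.1 and 43.2 CPM and 41.6, 46.7 and 44.5 CPM, and its interval of -0.17 to 0.16 is centred on 0. Mrpl33 had 14.2, 14.2 and 16.7 CPM and 15.6, 16.3 and 18.2 CPM, which overlap (log2 fold change 0.20; edgeR, adjusted p = 0.431).

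In the small subunit, the genes nearest to the threshold after Mrps25 were 3 with unadjusted p-values of about 0.05 by edgeR's quasi-likelihood test. Mrps10 (ENSMUSG00000034729, chr17:47368887-47381417), a homologue of a protein of the bacterial small subunit head, had 7.87, 7.63 and 8.07 CPM in PAC-CM and 8.33, 9.0 and 9.56 CPM with kinsenoside. All 3 kinsenoside libraries lay higher, with a log2 fold change of 0.23 (SE 0.103; edgeR, adjusted p = 0.334). Mrps18c and Mrps18b belong to a family of 3 genes related to a single bacterial protein. Mrps18c had 17.9, 19.7 and 18.4 CPM in PAC-CM and 20.9, 19.4 and 22.3 CPM with kinsenoside, with a log2 fold change of 0.20 (edgeR, adjusted p = 0.334). Mrps18b had 11.3, 12.7 and 15.1 CPM and 9.09, 11.6 and 9.75 CPM, which overlap, with a log2 fold change of -0.31 (SE 0.139; edgeR, adjusted p = 0.34). Mrps18a, the third of the family, had 22.6, 23.7 and 22.8 CPM and 21.7, 20.9 and 20.9 CPM, with a log2 fold change of -0.07. The estimates of the family thus lie on both sides of 0, and differences between its members were not tested.

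Mrps12, which encodes a protein of the decoding site, had 10.3, 10.6 and 8.73 CPM in PAC-CM and 9.07, 10.5 and 8.39 CPM with kinsenoside, with full overlap and a log2 fold change of -0.04. Mrps30 had 18.0, 18.1 and 16.8 CPM and 16.6, 16.2 and 12.5 CPM, with a log2 fold change of -0.18 (edgeR, adjusted p = 0.52). Mrps14 had 11.5, 11.8 and 13.0 CPM and 14.2, 13.1 and 12.8 CPM, and was above without overlap after TMM scaling (log2 fold change 0.19; edgeR, adjusted p = 0.394). Mrps21, the most abundant small subunit gene per kilobase, had 19.1, 19.8 and 19.8 CPM and 22.0, 21.3 and 13.8 CPM. Kinsenoside replicate 3 was the lowest and the other kinsenoside libraries the highest, so the SD grew from 0.408 to 4.56 CPM while the log2 fold change was 0.00.

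The RNA parts of the mitochondrial ribosome are encoded in mitochondrial DNA. mt-Rnr1, the small subunit RNA, had a log2 fold change of -0.02 and mt-Rnr2, the large subunit RNA, of 0.09 (edgeR, adjusted p = 0.971 and 0.712). The libraries were made from polyA RNA, so levels of these RNAs are those of molecules that the enrichment kept. Of the ribosomal proteins with other symbols, 5 were tested and none was called, with a median of 0.00; Dap3, a small subunit protein that binds GTP, stood at -0.06 and Ptcd3, which binds RNA in the small subunit, at -0.14 on the log2 scale.

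Genes that act on or around the mitochondrial ribosome gave no call either, at a background of 0.511%. None of 15 mitochondrial translation factors passed (median -0.02). The smallest p was that of Tufm, the elongation factor that brings tRNA to the ribosome, with 27.5, 30.4 and 30.6 CPM in PAC-CM and 23.0, 24.0 and 20.6 CPM with kinsenoside. Its groups do not overlap, with a log2 fold change of -0.35 (SE 0.0846; edgeR, adjusted p = 0.127). Lrpprc, which binds mitochondrial mRNA, was next at -0.17 (edgeR, adjusted p = 0.491). None of 26 genes for ribosome assembly and ribosomal RNA modification passed, with a median of -0.16 and 7 estimates above 0. The 2 of smallest p were Mtg2, a GTPase of large subunit assembly, at -0.33 and Ngrn at -0.30 on the log2 scale. None of 17 mitochondrial aminoacyl-tRNA synthetases passed, with a median of -0.12 and 4 estimates above 0. Nars2, which charges asparagine tRNA, stood at -0.75 on the log2 scale (SE 0.179; edgeR, adjusted p = 0.119), from a low level of 3.48 ± 0.232 CPM without and 2.0 ± 0.38 CPM with the compound (SD, n = 3 each). Fars2, which charges phenylalanine tRNA, stood at 0.27 in the other direction. Of 14 genes of mitochondrial transcription and its nuclear regulators none passed, with a median of -0.09: the nuclear receptor Esrra stood at -0.28 and Pprc1, a coactivator of the PGC-1 family, at 0.43.

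Cytosolic ribosomal protein genes and nuclear genes of the respiratory chain were read from the same fit, and their estimates had been seen in an earlier analysis of these data. Over all tested genes 48.9% of estimates lay above 0. Of 87 cytosolic ribosomal rows, 84 had estimates above 0, with a median of 0.25, and 1 passed: Rps15a, with 71.3 ± 3.0 CPM without and 89.6 ± 1.09 CPM with the compound (SD, n = 3 each), rose by 0.37 on the log2 scale (edgeR, adjusted p = 0.048). Of 77 respiratory chain genes 60 lay above 0 (median 0.10), and none passed; Ndufs8, a subunit of complex I, had the smallest p, with a log2 fold change of 0.61 (edgeR, adjusted p = 0.0517), followed by Cox5b of complex IV at 0.43. For mitochondrially encoded genes it was 24 of 26 (median 0.18), with no call. These 26 are all tested rows whose symbol starts with mt-. They include mt-Rnr1 and mt-Rnr2, so the list is not limited to protein genes. Of these rows mt-Cytb and mt-Nd3 had the smallest p, and both stood at 0.19. The median deviation of the 26 rows was -0.1022, -0.1405 and -0.0062 in PAC-CM and -0.1065, 0.1053 and 0.2533 with kinsenoside, and the groups overlap. The median fold change was 0.10 without kinsenoside replicate 3 and 0.04 with offsets for transcript length and GC content. The 78 mitochondrial ribosomal genes had 35 above 0. In the single libraries, the median deviation of the mitochondrial ribosomal genes was 0.0294, -0.0109 and 0.0037 in PAC-CM and 0.0017, 0.0272 and -0.0461 with kinsenoside, which overlap. For the cytosolic ribosomal genes it was -0.1986, -0.1424 and -0.0414 in PAC-CM and 0.0275, 0.0962 and 0.2599 with kinsenoside, which do not. The respiratory chain genes had -0.0386, -0.0618 and -0.052 in PAC-CM and 0.0716, 0.0181 and 0.0533 with kinsenoside, which do not overlap either. The mitochondrial less the cytosolic median was 0.228, 0.1315 and 0.0451 in PAC-CM and -0.0258, -0.069 and -0.306 with kinsenoside, so every PAC-CM library was above 0 and every kinsenoside library below. This difference is described only; no test was made of it.

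**Figure D4:**
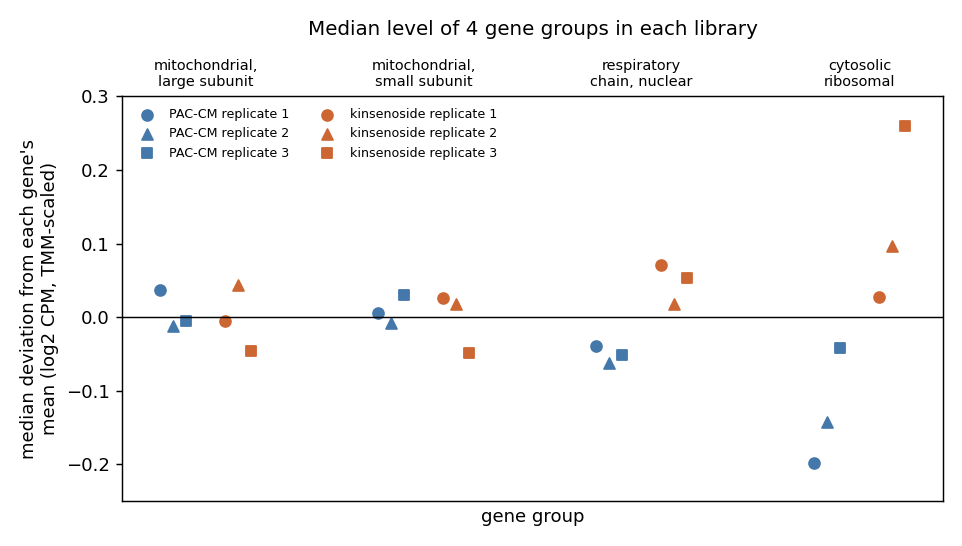
Median deviation of 4 gene groups from each gene's mean over the 6 libraries, in log2 CPM scaled by TMM factors; each point is 1 library. For the large and small mitochondrial ribosomal subunits the PAC-CM (blue) and kinsenoside (orange) points mix between -0.0481 and 0.0438, whereas for the cytosolic ribosomal genes they run from -0.1986 to 0.2599 and do not overlap. The respiratory chain points run from -0.0618 to 0.0716 and do not overlap either.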

How the data were processed

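Each library is RNA-seq of polyA RNA from macrophages, made from 1 µg of total RNA and read as 150-nucleotide pairs per the labels' protocols. The deposited table holds whole-number read counts per Ensembl gene, 1 column per library, with the symbols used here. Tools listed by the submitters' processing notes, in no stated role, include STAR, StringTie 1.3.1c and DESeq2 1.16.1; the build is GRCm38. Which tool made the counts and whether it used strand are not given in the sources used here.

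The counts were used as deposited, in edgeR 4.0.16 (R 4.3.3, limma 3.58.1): filterByExpr (13901 genes kept), TMM, robust dispersion and a two-sided quasi-likelihood test with the group as the only term (4 residual degrees of freedom), adjusted by Benjamini-Hochberg over all genes tested, with a threshold of 0.05. The standard error is the size of the log2 fold change over the square root of F. CPM is the count per 1000000 counts of the library; log2 CPM per library used TMM factors and a prior count of 2. The script was tested on simulated data. Members had 99 to 2234 counts per library.

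GENCODE M21 gave coordinates, transcript lengths and overlaps; 55154 identifiers matched. No gene list or member score was tested. The members and lists were chosen with earlier results of these data known. Named members are those called, per subunit the 4 of smallest p, the highest and lowest estimate and the 3 most abundant per kilobase, and 9 genes of known role; from each related list come the called genes or else the 2 of smallest p. Mrpl9, Mrpl22, Mrpl45, Mrpl46, Mrpl53, Mrps11, Mrps14, Mrps35, Mrps36, Nr2c2 and the genes listed for their overlaps were named after their values were seen.

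Alternatives were DESeq2 1.42.0, limma-voom, RLE, upper quartile and total scaling, 2 other filters, non-robust estimates, a replicate block, length and GC offsets, subunits by structure, a prior count of 0, a threshold of 0.1 and leaving out each library. Summing members with overlapping genes and setting intervals against a 1.5-fold difference were added after seeing the data.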

Additional observations from a re-analysis of the deposited data

How the results depend on the processing

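Mrps25 was called in 12 of 19 alternatives and its estimate was below 0 in 18 of them. The exception was the row summed with Nr2c2, which adds another gene and is not an estimate of Mrps25 alone. That row stood at 0.0642 (adjusted p = 0.873 by edgeR, from an alternative chosen after seeing the data), and the number of genes called among the 78 then was 0. The estimate of Mrps25 ranged from -0.6751 to -0.5839 when a library was left out, and the number called among the 78 was 0 to 1. With the replicate number of the labels as a block, 0 of the 78 were called (Mrps25 adjusted p = 0.0519 by edgeR) and 42 of all genes, compared with 71 without the block. When length and GC offsets were added to the block, 1 of the 78 was called and 52 of all genes. Same-numbered libraries correlated by 0.00874, -0.101 and 0.135 in their deviations from the group mean, and not every library correlated best with its own number. With so few libraries, these values cannot tell whether same-numbered samples share an animal, culture or batch. Over all genes, DESeq2 called 490 and non-robust estimates 36, and leaving out a library gave 13 to 98. The other 18 named members that the rule gives were called in no alternative, including DESeq2 and limma-voom, but the size of several estimates rests on single libraries. Without kinsenoside replicate 3, Mrps30 went from -0.1817 to -0.0657 and Mrpl58 from -0.2639 to -0.1198, while Mrpl58 was -0.501 without kinsenoside replicate 2. Mrpl52 went from 0.171 to 0.0918 without kinsenoside replicate 1, and Mrps18b from -0.3127 to -0.191 without PAC-CM replicate 3.

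The large subunit median was -0.0545 and the small subunit median -0.0621 with library totals only, a setting without composition factors that moved the median of all tested genes to -0.0498. Leaving out a library gave -0.018 to 0.0136 for the large and -0.0517 to 0.0044 for the small subunit, and -0.0168 to 0.0551 for large minus small. With library totals only, translation factors had a median of -0.062 and the respiratory chain 0.0585. With length and GC offsets the assembly list had -0.1043 and the mitochondrially encoded genes 0.0386, or 0.0392 with the block as well. With the filter of more than 1 CPM the regulators had -0.0243. Leaving out a library gave -0.0812 to 0.0202 for translation factors, -0.1391 to -0.094 for assembly, -0.1552 to -0.047 for synthetases, -0.154 to -0.0022 for regulators and 0.0969 to 0.2767 for mitochondrially encoded genes. The causes of these moves were not tested. Genes of the 78 whose groups do not overlap numbered 9 to 14 under the other scalings, filters and offsets. In the main fit they numbered 11 (14.1%), and the share over all tested genes was 21.8%. The shares over all tested genes in the other settings are not given here, so the range of 9 to 14 cannot be read as a trait of these genes. With 3 libraries a group, and a median standard error of 0.103, small differences of single members may have been missed.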
